A study of Mus musculus with 6 samples.

Results

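The module comprised 30 genes of the B cell lineage, taken as the rows of the deposited gene table whose gene symbol was one of a fixed list of receptors, signalling proteins and transcription factors, with immunoglobulin genes left out. All 30 were found, each on 1 of the 54532 rows. The libraries came from primary mouse macrophages of METRNL+/+ (WT) and METRNL-/- (METRNL KO) mice, cultured and then challenged with *Candida albicans* for 6 h, with 3 WT and 3 KO libraries. The challenge was common to all 6 libraries, so the comparison is between genotypes in challenged cells. The labels give no allele, sex, age or site of origin of the macrophages, and leave unsaid if each replicate was its own animal or culture, so the spread that p-values measure may be technical. Values are FPKM (fragments per kilobase of gene length, scaled for depth), and the whole reads behind them could be recovered.

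B cells recognise antigen through a surface immunoglobulin that signals through the CD79A and CD79B proteins, whose tails are phosphorylated by kinases such as LYN and BLK and passed on through SYK and the adaptor BLNK. Co-receptors such as CD22 and CD72 damp that signal, and the transcription factors EBF1 and PAX5 establish and hold the lineage. Several of these proteins are not exclusive to B cells: macrophages are known to carry CD37, BLNK, CD72 and OCT2 (the product of *Pou2f2*), T cells CD5 and *Ikzf3*, and dendritic cells *Bcl11a*, *Spib* and H2-O.

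The libraries held between 11026529 and 15724897 reads in genes. *Metrnl* itself ranged from 63.2 to 93.5 FPKM in WT and from 51.2 to 63.6 FPKM in KO, so its ranges overlapped and its level does not check the labels; KO below means the libraries labelled KO. Macrophage markers were abundant in every library as a sum, though not each of them. The summed level over 13 markers ran from 5151 to 5984 FPKM in WT and from 8990 to 9702 FPKM in KO. The most abundant were *Lyz2* (WT and KO means of 2204 and 4431 FPKM) and *Cd14* (1800 and 2674 FPKM). *Mertk* (1.70 and 2.01 FPKM) and *Fcgr1* (4.75 and 1.24 FPKM), named after their values were seen, were low. The extraction label speaks of retinas, but 7 retinal markers summed to at most 1.37 FPKM in any library.

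Promoters of 4 members are shown because these genes changed to different extents, as described below: *Cd79a* fell with the receptor, *Cd22* fell by less, and *Blnk* and *Cd37* did not fall. Members that fell further than *Cd79a*, such as *Ly6d*, are not among them. Each is the RefSeq GRCm38.p6 sequence from 250 bases before to 50 bases after a gene start, printed on the gene's own strand: chr7:24897247-24897546 (plus) for *Cd79a*, chr7:30878979-30879278 (minus) for *Cd22*, chr19:40994172-40994471 (minus) for *Blnk* and chr7:45238790-45239089 (minus) for *Cd37*. Capitals mark matches on either strand to any of 3 motifs for factors in or near the module: the octamer ATGCAAAT bound by OCT factors such as OCT2, the EBF1 motif read as TCCC, any 2 bases and GGGA, and AGGAAGT for ETS factors such as SPI-B and PU.1.
Cd79a: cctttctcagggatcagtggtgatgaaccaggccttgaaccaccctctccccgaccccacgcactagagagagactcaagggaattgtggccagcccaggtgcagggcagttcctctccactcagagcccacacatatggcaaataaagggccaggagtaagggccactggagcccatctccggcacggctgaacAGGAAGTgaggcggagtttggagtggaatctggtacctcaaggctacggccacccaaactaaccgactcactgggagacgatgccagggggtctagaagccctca
Cd22: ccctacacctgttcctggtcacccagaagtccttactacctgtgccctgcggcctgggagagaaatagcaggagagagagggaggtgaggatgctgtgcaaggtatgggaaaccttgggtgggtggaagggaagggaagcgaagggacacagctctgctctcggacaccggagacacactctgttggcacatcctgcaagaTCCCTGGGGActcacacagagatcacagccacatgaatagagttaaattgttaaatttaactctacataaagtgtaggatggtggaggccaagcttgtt
Blnk: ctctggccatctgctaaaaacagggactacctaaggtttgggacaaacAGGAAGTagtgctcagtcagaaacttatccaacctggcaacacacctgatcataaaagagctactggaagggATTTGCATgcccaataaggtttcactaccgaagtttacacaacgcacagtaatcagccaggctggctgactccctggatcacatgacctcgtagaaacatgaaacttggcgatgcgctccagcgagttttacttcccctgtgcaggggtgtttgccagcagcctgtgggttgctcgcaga
Cd37: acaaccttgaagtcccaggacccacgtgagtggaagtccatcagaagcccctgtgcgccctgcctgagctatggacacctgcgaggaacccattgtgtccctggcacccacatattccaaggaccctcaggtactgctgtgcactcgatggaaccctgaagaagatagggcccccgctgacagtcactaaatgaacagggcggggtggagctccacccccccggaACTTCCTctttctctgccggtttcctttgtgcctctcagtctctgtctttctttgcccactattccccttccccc
The matches printed do not overlap each other. Among these 4 promoters the ETS letters stand in *Cd79a*, which fell, and in *Blnk* and *Cd37*, which did not. The octamer stands in *Blnk* only and the EBF1 letters in *Cd22* only. Whether any of these motifs bears on the change was not tested. Of the 30 members 25 had a promoter in the RefSeq table. These 25 had 30 promoters in all. Of the 30 promoters, the octamer was in 2 (of *Blnk* and *Vpreb3*), the EBF1 motif in 1 and the ETS motif in 9. Of all 32851 mouse promoters of this length, 1.74%, 0.904% and 9.35% held them.

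Nearly the whole module was lower in KO. Of the 30 members 26 had a mean of at least 0.5 FPKM over the libraries and were tested; 23 fell, 0 rose and 3 (*Cd37*, *Blnk* and *Bcl11a*) did not pass (limma on log2(FPKM + 1), Benjamini-Hochberg adjusted p below 0.05). The count that rose was also 0 at an unadjusted p below 0.05 and, at the adjusted threshold, with voom on the recovered reads. In the same fit 12.4% of all 11689 tested genes fell. The median log2 fold change, KO minus WT, was -1.81 over the 26 tested members and 0.03 over all tested genes. Since 11 of the 26 had a KO mean under 0.5 FPKM and were tested only through their WT level, the fit was repeated on every gene with a read. Then 27 of 30 members were called lower, against 4.17% of 28477 genes, and *Cd37*, *Blnk* and *Bcl11a* again were not. Among these 27, *Vpreb3* (log2 fold change -0.153, 4 WT and 0 KO reads) and *Cr2* (-0.154, 42 and 5 reads) rest on few reads. Their calls are weak evidence of a fall. In 23 of the 26 tested members each KO library lay below each WT library, against 19.9% of all tested genes. The 4 members under the filter were separated in the same way. This separation comes from the same values as the fits, so it is not separate evidence. In bulk RNA, fewer cells of a type and less RNA per cell cannot be told apart.

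**Figure D1:**
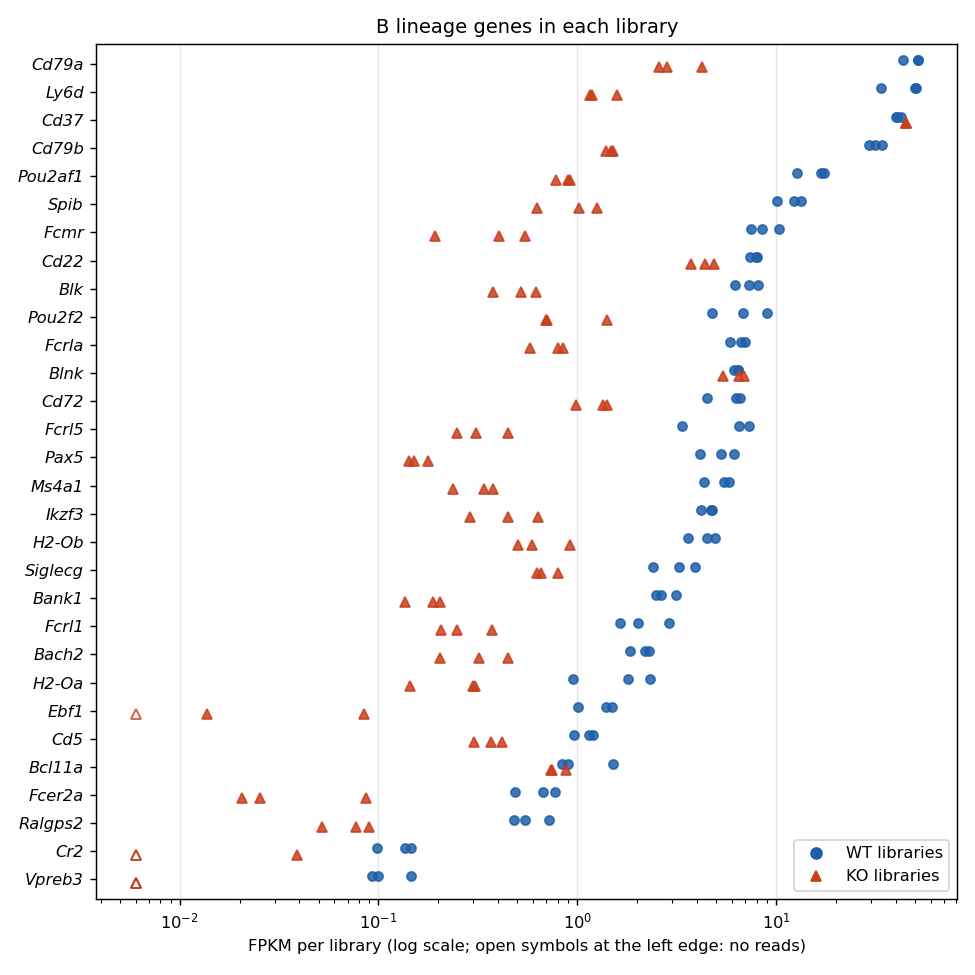
Level of each member in each library, in FPKM on a log axis, with WT libraries as circles and KO libraries as triangles, and open symbols at the left edge for libraries with no reads. For 27 of 30 members all KO values lie left of all WT values, while those of *Blnk* and *Bcl11a* overlap and those of *Cd37* lie to the right.

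The signalling pair of the receptor stood among the highest members in WT. *Cd79a* (chromosome 7, 24897381 to 24902197, GRCm38, as all positions here) was at 43.7, 52.0 and 52.0 FPKM in WT replicates 1 to 3 and at 4.24, 2.83 and 2.56 FPKM in KO replicates 1 to 3. Its KO level was 15.3-fold lower (log2 fold change -3.59 ± 0.16 SE, limma adjusted p = 8.76e-05), and KO replicate 1 was the highest KO library. *Cd79b* (chromosome 11, 106311341 to 106314762) was at 29.4, 31.5 and 34.2 FPKM in WT and at 1.47, 1.51 and 1.40 FPKM in KO, 21.7-fold lower (log2 fold change -3.73 ± 0.08 SE, limma adjusted p = 6.89e-06). KO libraries were close together for *Cd79b* and far below WT for both genes. KO thus held 6.52% of the WT level of *Cd79a*, with a 95% counting interval of 5.58% to 7.47%, and 4.61% of that of *Cd79b*, 3.71% to 5.72%. Counting intervals are exact binomial intervals on the recovered reads and cover counting error only.

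The 8 co-receptors and inhibitory receptors spread widely, from 6.14% to 109% of WT. *Ms4a1*, which encodes CD20, was at 4.33, 5.79 and 5.46 FPKM in WT and at 0.341, 0.379 and 0.237 FPKM in KO, 6.14% of WT. *Siglecg*, a sialic acid-binding inhibitor of receptor signalling in B-1 cells, was at 2.41, 3.92 and 3.24 FPKM in WT and at 0.797, 0.659 and 0.625 FPKM in KO, 21.7% of WT. Both fell with no overlap of the groups, and KO kept a larger share of *Siglecg*. *Cd22* (chromosome 7, 30865402 to 30880342), another sialic acid-binding inhibitory receptor, was at 7.37, 8.02 and 7.95 FPKM in WT and at 3.74, 4.86 and 4.41 FPKM in KO. Its groups did not overlap, but KO kept 55.7% of WT (log2 fold change -0.72 ± 0.09 SE, adjusted p with limma of 0.00356), and no other member that passed kept as much. KO replicate 1, the highest KO library for *Cd79a*, was the lowest for *Cd22*. *Cd72*, a C-type lectin-like inhibitor of receptor signalling, was at 4.50, 6.60 and 6.30 FPKM in WT and at 0.982, 1.35 and 1.40 FPKM in KO, 21.5% of WT. Its exons share 1423 bases with *Tesk1* on the opposite strand, which had means of 2.67 (WT) and 2.36 (KO) FPKM; whether counting used strand is not given in the sources used here, so reads of this stretch are uncertain.

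*Cd5*, a scavenger-type receptor of T cells and B-1a cells, was low, at 0.965, 1.15 and 1.20 FPKM in WT and at 0.302, 0.367 and 0.419 FPKM in KO. KO kept 32.9% of its WT level, with a counting interval of 21.8% to 50.5% from 91 WT and 33 KO reads. *Cd37* (chromosome 7, 45233632 to 45239115), a tetraspanin of B cells and other leukocytes, went the other way: 40.6, 40.0 and 42.7 FPKM in WT and 45.1, 44.9 and 44.8 FPKM in KO. All KO libraries lay above all WT libraries, at 109% of WT, and the difference did not pass (log2 fold change 0.13, 95% interval -0.02 to 0.27, limma adjusted p = 0.159; -0.032 after quantile normalization). The complement receptor gene *Cr2* and the low-affinity IgE receptor gene *Fcer2a*, both from a list of follicular and marginal zone B cell genes, were under the filter. *Fcer2a* had 78 reads over the WT and 6 over the KO libraries; its share of WT was 6.86%, and 3.57% without KO replicate 3. *Cr2* had 42 WT and 5 KO reads, all 5 in KO replicate 2, so its share of 10.3% became 0 without that library and 15.4% without either of the other KO libraries.

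All 4 genes of the Fc receptor group fell. *Fcmr*, the receptor for IgM, was at 7.47, 8.51 and 10.4 FPKM in WT and at 0.405, 0.547 and 0.192 FPKM in KO, 4.34% of WT (log2 fold change -2.82 ± 0.15 SE, limma adjusted p = 1.43e-04). *Fcrl5*, an Fc receptor-like protein of B-1 and marginal zone B cells, was at 3.37, 7.32 and 6.52 FPKM in WT and at 0.449, 0.310 and 0.249 FPKM in KO, 5.86% of WT. The low value was WT replicate 1, which held 58.7% of the WT mean. *Fcrla*, an intracellular relative, and *Fcrl1* kept more, at 11.4% and 12.6% of WT.

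The signalling genes divided. *Blk*, a SRC family kinase of B cells, was at 7.35, 8.12 and 6.22 FPKM in WT and at 0.522, 0.376 and 0.618 FPKM in KO, 6.99% of WT (log2 fold change -2.45 ± 0.11 SE, limma adjusted p = 1.04e-04). *Bank1*, a scaffold that links LYN to calcium release, ranged from 2.50 to 3.14 FPKM in WT and from 0.135 to 0.205 FPKM in KO, 6.37% of WT. *Ralgps2*, an exchange factor for RAL GTPases, was under the filter, with 278 reads in WT and 39 in KO, 12.5% of WT. *Blnk* (chromosome 19, 40928927 to 40994535), the adaptor that couples SYK to phospholipase C and calcium signalling, was at 6.40, 6.15 and 6.44 FPKM in WT and at 5.40, 6.51 and 6.91 FPKM in KO. Its groups overlapped and the KO mean was 99.1% of WT (log2 fold change -0.02, 95% interval -0.24 to 0.21, limma adjusted p = 0.911). The sign of this value turned without KO replicate 1, the lowest library, at 0.072.

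Of 8 transcription regulators 7 fell. *Pax5* (chromosome 4, 44524757 to 44710487), the factor that holds B cell identity, was at 4.16, 6.18 and 5.26 FPKM in WT and at 0.177, 0.150 and 0.143 FPKM in KO, 33.2-fold lower (log2 fold change -2.41 ± 0.13 SE, limma adjusted p = 1.69e-04). *Ebf1* (chromosome 11, 44617317 to 45008091), which acts upstream of *Pax5*, was at 1.00, 1.39 and 1.5 FPKM in WT and at 0, 0.0844 and 0.0137 FPKM in KO. Its KO level was 2.52% of WT, with a counting interval of 1.54% to 4.62%, and rests on 15 KO reads, 13 of them in KO replicate 2. The share was 3.78% without KO replicate 1, 0.527% without KO replicate 2 and 3.25% without KO replicate 3, so its place beside *Pax5* and *Ly6d* is not fixed. *Pou2af1*, the OCT coactivator OBF1, was at 12.8, 17.5 and 16.8 FPKM in WT and at 0.920, 0.895 and 0.785 FPKM in KO, 5.51% of WT. *Spib*, the ETS factor SPI-B of B cells and plasmacytoid dendritic cells, was at 10.1, 13.4 and 12.3 FPKM in WT and at 1.25, 1.02 and 0.628 FPKM in KO, 8.10% of WT. These B cell factors were all at 10% of WT or less.

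The remaining factors kept more. *Ikzf3*, the Ikaros family member Aiolos of lymphocytes, was at 10.1% of WT. *Pou2f2*, encoding OCT2, was at 4.75, 9.02 and 6.80 FPKM in WT and at 1.41, 0.707 and 0.696 FPKM in KO, 13.7% of WT, with KO replicate 1 at 20.6% of the WT mean and the other KO libraries at 10.3% and 10.2%. *Bach2*, a repressor of plasma cell and effector programmes in B and T cells, was at 15.4%. *Bcl11a* (chromosome 11, 24078056 to 24174123), a zinc finger factor of lymphoid progenitors and plasmacytoid dendritic cells, was at 0.843, 1.52 and 0.897 FPKM in WT and at 0.736, 0.745 and 0.881 FPKM in KO. Its groups overlapped, KO kept 72.4% of WT, and it did not pass (log2 fold change -0.21, 95% interval -0.55 to 0.13, limma adjusted p = 0.317); WT replicate 2 was far above the other libraries.

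On the log2(FPKM + 1) scale the largest fall among the members was that of *Ly6d* (chromosome 15, 74762056 to 74763620), a surface protein that marks B cell specification in progenitors and is also found on plasmacytoid dendritic cells. It was at 33.6, 50.1 and 50.6 FPKM in WT and at 1.58, 1.19 and 1.17 FPKM in KO, 34.1-fold lower (log2 fold change -4.29 ± 0.17 SE, limma adjusted p = 6.70e-05). This order depended on the constant added: with 0.01 in place of 1 the log2 changes of *Ebf1* and *Ly6d* were -5.52 and -5.07, and with voom on recovered reads -6.02 and -5.03. *Vpreb3*, a chaperone-like partner of receptor assembly in immature B cells, had only 4 WT reads and 0 KO reads. With 3 reads for the KO group as the limit and the WT reads taken as exact, its bound was 69.4% of WT (1.44-fold lower). This bound rests on few reads. The counting interval of *Vpreb3* ran from 0% to 140% of WT, so its read counts alone do not show a fall. The H2-O chains, which restrain peptide loading onto MHC class II molecules, fell by like amounts. *H2-Ob* was at 3.60, 4.93 and 4.51 FPKM in WT and at 0.917, 0.502 and 0.593 FPKM in KO, 15.4% of WT, and *H2-Oa* was at 14.7% of WT, resting on 14 KO reads and sharing 321 exon bases with the antisense gene *BC051537*. *H2-Oa* had an adjusted p = 0.0117 with limma (0.0033 to 0.0506 over the alternatives).

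The ratio was therefore not uniform. Among the 29 members with KO reads, 13 kept under 10% of their WT level, 11 kept 10% to 25%, 3 (*Cd5*, *Cd22* and *Bcl11a*) kept 25% to 75% and 2 (*Blnk* and *Cd37*) kept more. Their median was 10.3%, with quartiles of 6.14% and 15.4%; with *Vpreb3* at its bound the median over all 30 was 10.9%. All tested genes had a median of 103%, with quartiles of 81.3% and 125%, and 183 of them, 1.57%, kept under 10%. Among the 15 members whose main source in textbooks is the B cell, 9 kept under 10%; the others with KO reads were *Cr2* (reads in 1 KO library only), *Fcrla*, *Fcrl1*, *Siglecg* and *Cd22*.

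**Figure D2:**
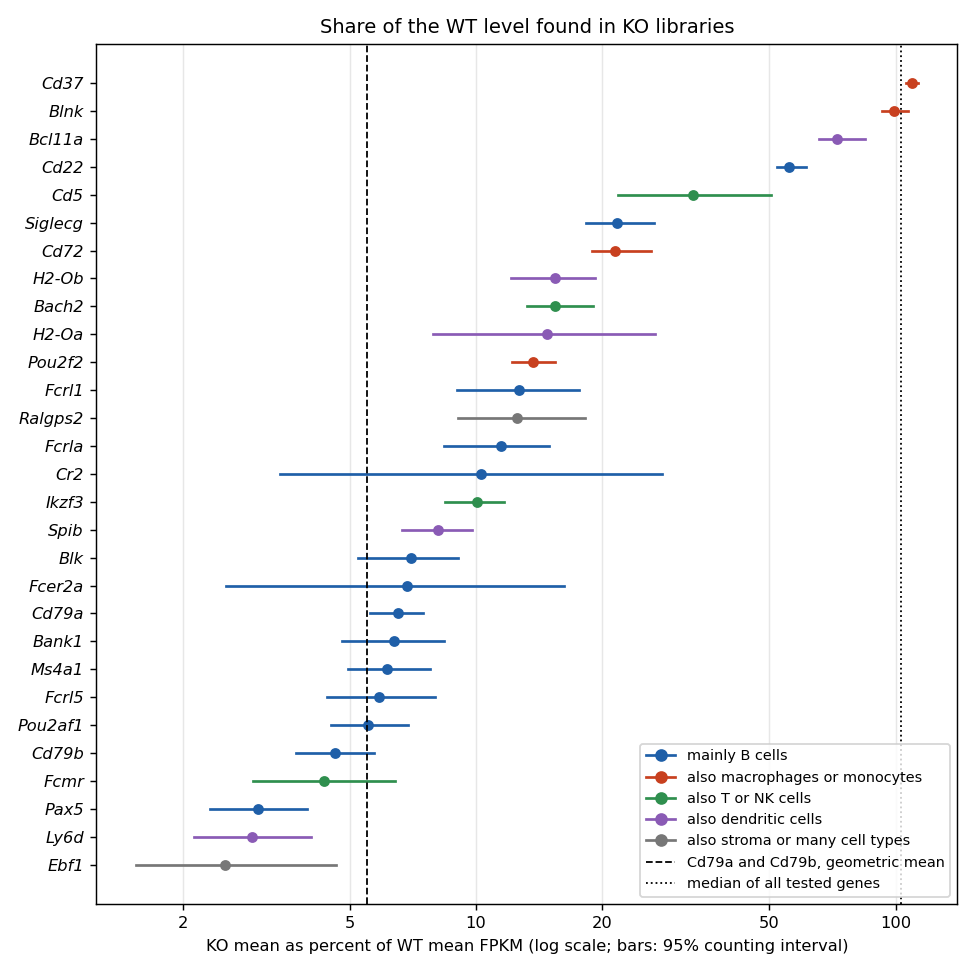
KO mean as a percent of the WT mean FPKM for the 29 members with KO reads, on a log axis, with 95% counting intervals as bars and colours for the cell types known to carry each gene. The dashed line marks the receptor pair at 5.48%, 13 members lie under 10%, and *Cd37* and *Blnk* lie by the dotted line of the median tested gene at 103%.

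Whether a member changed by as much as the receptor pair was tested by subtracting, in each library, the mean log2(FPKM + 0.1) of *Cd79a* and *Cd79b* from every gene and fitting limma to the differences. Of the 24 other tested members 16 fell less than the pair or not at all, 1 fell more, and 7 did not differ beyond the threshold. Almost any gene without a B cell pattern differs from the pair: 97.9% of all tested genes fell less or rose, and 0.222% fell more. All these tests share the same pair values. The 7 were *Pou2af1* (0.12, 95% interval -0.24 to 0.47 on the log2 scale), *Fcmr* (-0.13, -0.75 to 0.49), *Pax5* (-0.21, -0.75 to 0.32), *Fcrl5* (0.44, -0.18 to 1.07), *Ms4a1* (0.47, -0.02 to 0.96), *Blk* (0.53, -0.04 to 1.09) and *Ebf1* (0.71, -0.47 to 1.88). The interval of *Ebf1* was the widest. For *Pax5* and *Ebf1*, whose KO levels are near or under the 0.1 FPKM added, the sign was not stable: over the alternatives the values ran from -0.83 to 1.25 and from -1.96 to 2.51. *Fcmr* also changed sign, from -0.41 to 0.84, and passed with a pseudocount of 1. On voom with recovered reads *Pax5* and *Ebf1* fell more than the pair (limma adjusted p = 0.0113 and 0.0251), while *Fcmr* did not pass (0.356).

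*Ly6d* was the gene that fell more, by 0.84 beyond the pair on the log2 scale (95% interval -1.19 to -0.49, limma adjusted p = 5.60e-04). At 100 FPKM of the receptor pair (geometric mean of *Cd79a* and *Cd79b*), WT libraries held 93.8, 124 and 120 FPKM of *Ly6d* and KO libraries 63.0, 57.8 and 61.6 FPKM. The groups did not overlap. For *Ms4a1* the same measure was 12.1, 14.3 and 13.0 in WT and 13.6, 18.4 and 12.5 in KO, which overlapped. For *Pou2af1* it was 35.7, 43.3 and 39.9 in WT and 36.8, 43.4 and 41.5 in KO, so this coactivator kept step with the receptor in all 6 libraries. *Siglecg* measured 6.73, 9.70 and 7.69 across WT libraries against 31.9, 32.0 and 33.0 across KO libraries, which were nearly equal.

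**Figure D3:**
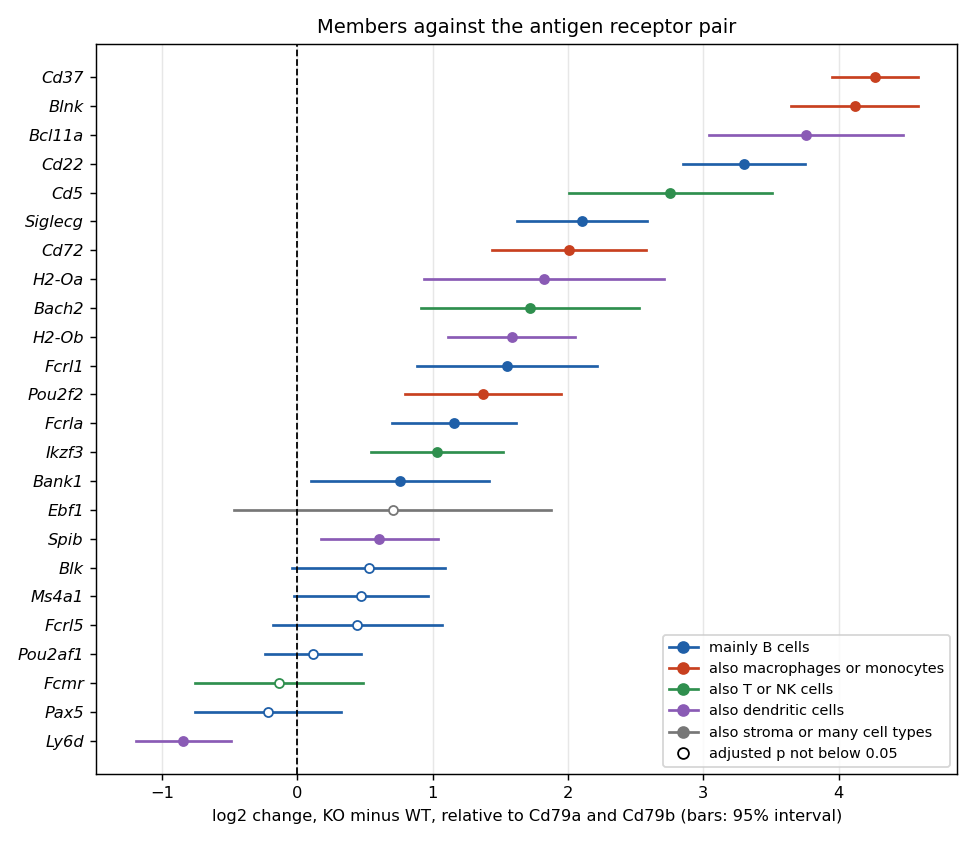
Log2 change of 24 members, KO minus WT, relative to *Cd79a* and *Cd79b* in the same library, with 95% intervals from limma; a value of 0 (dashed) is a change equal to that of the pair, and open points did not pass. *Ly6d* lies below 0, 7 open points straddle it, and *Cd37*, *Blnk*, *Bcl11a* and *Cd22* lie between 3.30 and 4.27.

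The order of the levels changed with genotype. In WT the highest members were *Cd79a* (49.2 ± 4.76 FPKM, SD, n = 3), *Ly6d* (44.8 ± 9.66), *Cd37* (41.1 ± 1.45) and *Cd79b* (31.7 ± 2.43). *Ly6d* overlapped with *Cd79a*, *Cd37* and *Cd79b*, which did not overlap each other. In KO *Cd37* stood first at 45.0 ± 0.170 FPKM, then *Blnk* at 6.27 ± 0.780, *Cd22* at 4.34 ± 0.567 and *Cd79a* at 3.21 ± 0.90 FPKM (SD, n = 3 each). FPKM are scaled by 1 deposited length per gene. Whether that length fits the transcripts present was not tested, so the order of different genes is only a rough one. *Blnk* and *Cd22* did not overlap in KO, while *Cd22* and *Cd79a* did. If each WT level were scaled by the 5.48% that the pair kept, KO would hold 2.25 FPKM of *Cd37*, 0.347 FPKM of *Blnk*, 0.426 FPKM of *Cd22* and 0.0596 FPKM of *Bcl11a*; the measured KO means were 45.0, 6.27, 4.34 and 0.787 FPKM.

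Members known in macrophages did not behave alike. Of the 4 such genes *Cd37* and *Blnk* did not fall, whereas *Cd72* and *Pou2f2* fell to 21.5% and 13.7% of WT; all 4 fell less than the pair or not at all (limma adjusted p at most 5.85e-04). *Cd22* was not on that list and kept more than either of the latter. The 4 members known in T cells kept 4.34% (*Fcmr*) to 32.9% (*Cd5*), and the 5 known in dendritic cells 2.93% (*Ly6d*) to 72.4% (*Bcl11a*). Macrophage markers kept a median of 127% of WT (13 markers, 5 rose and 2 fell). The 2 that fell, named after their values were seen, were *Marco* (26.4% of WT) and *Fcgr1* (26.1%). T and NK cell markers kept 24.7% (13 markers, 7 tested, 7 fell), their summed level going from 17.4 to 20.6 FPKM in WT to 4.79 to 5.57 FPKM in KO. Of 8 conventional dendritic cell markers 5 fell (median 37.1% of WT, summed level 101 to 121 FPKM in WT and 66.9 to 73.7 in KO), and of 7 plasmacytoid markers 4 were tested, 1 fell and 1 rose (summed level 7.99 to 10.3 and 6.38 to 8.52 FPKM). *Klrb1c* of the T and NK cell list and *Klk1* of the plasmacytoid list, named after their values were seen, had no reads in KO. They had only 3 and 4 reads in WT, too few to compare. Single plasmacytoid markers differed widely, from 4.92% of WT for *Siglech* to 484% for *Cox6a2*, which had 5 WT and 27 KO reads; both were named after their values were seen. The part of these cells in the values of the shared members was not tested.

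Other genes of B cells outside the module were counted from lists. Of 20 other genes of antigen receptor signalling, all tested, 7 fell and 1 rose, with a median of 87.6% of WT kept. The most abundant were *Pik3ap1* (92.7% of WT), the kinase *Syk* (132%, the member that rose, limma adjusted p = 0.00695), *Malt1* (125%) and *Vav1* (96.8%). The exchange factor *Rasgrp3*, named after its values were seen, fell to 6.72% of WT, from 1.94, 2.28 and 2.31 FPKM to 0.0953, 0.180 and 0.163 FPKM. Of 13 other surface, homing and survival genes 9 fell. Among the 4 most abundant, *Cd38* (173% of WT) and *Cd40* (61.8%) did not pass, *Cd24a* fell to 45.0% and the follicle-homing receptor *Cxcr5* to 4.44%. Of 10 other transcription factors 9 were tested, 4 fell and 1 rose. *Spi1*, which encodes PU.1 of macrophages and B cells, was the one that rose, to 142% of WT (limma adjusted p = 0.00936). *Irf4* fell to 28.1%, and *Irf8* (77.3%) and *Id3* (106%) did not pass. The shares of *Id3* and *Cd40* lean on KO replicate 1. KO replicates 1 to 3 were at 36.0, 13.1 and 12.1 FPKM for *Id3* and at 22.0, 7.68 and 8.03 FPKM for *Cd40*.

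**Figure D4:**
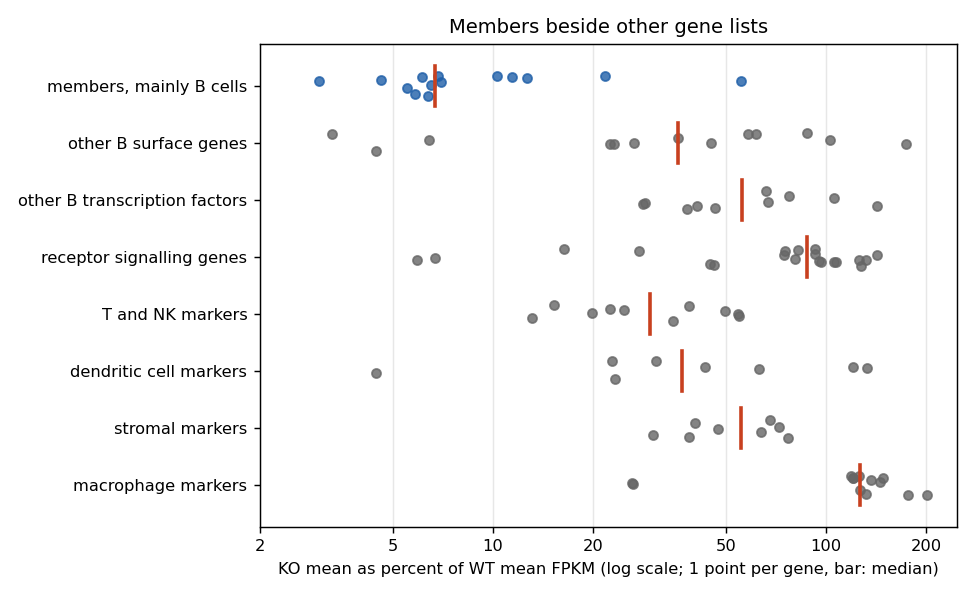
KO mean as a percent of the WT mean FPKM on a log axis, 1 point per gene with at least 20 WT reads and a bar at the median, for the members known mainly in B cells and for 7 other lists. The members cluster at a median of 6.69% (n = 14), the receptor signalling genes at 87.6% with a tail of low genes, and the macrophage markers at 127%.

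WT replicate 1 was the lowest WT library for 24 of the 30 members, with a summed level of 248 FPKM against 306 and 304 FPKM in WT replicates 2 and 3. No KO library was the lowest for as many members. KO replicates 1 to 3 were the lowest KO library for 10, 6 and 14 members and the highest for 14, 7 and 9. Ties went to KO replicate 1. *Vpreb3*, with no reads in KO, counted there as both lowest and highest, and *Cr2*, tied with KO replicate 3, as lowest. Over all genes KO replicate 1 did stand apart, with an FPKM sum of 412048 against 335015 and 334570 in KO replicates 2 and 3. In KO the sum over the members was 73.4, 71.9 and 71.2 FPKM, of which *Cd37* and *Blnk* made up most. Without these 2 genes it was 22.9, 20.5 and 19.4 FPKM, against 201, 260 and 254 FPKM in WT. The median member known mainly in B cells was at 88.8%, 112% and 102% of its WT mean in the WT libraries and at 6.80%, 5.69% and 5.21% of it in the KO libraries. The spread between libraries of a group was thus small beside the difference between groups, and 23 members were still called lower when replicate 1 of each genotype was dropped, a choice made once the data had been seen.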

How the data were processed

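The authors deposited 1 table of FPKM values for 54532 Ensembl genes with coordinates and lengths. Per the submitters' processing notes the reference was GRCm38 (mm10). The aligner, counter and strand setting were not given in the sources used here. FPKM times the deposited gene length came out as whole multiples of a step in 100% of nonzero values (tolerance 0.05 of the step), taken as reads; the library totals they imply carry median-of-ratios size factors. Replicate numbers come from the sample titles. Of the members, 28 of 30 have the same coordinates in GENCODE M21.

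Genes averaging 0.5 FPKM or more were tested with limma 3.58.1 in R 4.3.3 on log2(FPKM + 1), with eBayes, an intensity trend and Benjamini-Hochberg adjustment over all 11689 genes; fold changes on this scale understate changes of low genes. The test against the receptor pair added 0.1. Shares of WT are ratios of mean FPKM. Scripts were tested on simulated data. The members and lists were chosen with earlier results of these data known. All members are described; up to 4 genes of each other list are named, those with the highest mean, and others are said to be named after their values were seen. Some genes of these lists are not reported here.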

Additional observations from a re-analysis of the deposited data

How the results depend on the processing

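The count of 23 members lower in KO stayed at 23 with a pseudocount of 0.1 or 0.01, TPM, quantile normalization, eBayes without the trend or robust, voom on recovered reads, and without any 1 library; it was 27 of 30 with no filter and 16 of 18 at a mean of at least 2 FPKM. Same-numbered libraries did not deviate together (correlations of -0.50, -0.19 and -0.16), so the numbers are not taken as pairs; with the number as a replicate block 22 members were called, *H2-Oa* being lost (adjusted p = 0.0506), and 16 differed from the receptor pair. That count was 17 as reported, 10 of 16 at a mean of at least 2 FPKM, where fewer members are tested, 24 of 24 with a pseudocount of 1, 13 (8 fell less, 5 more) with *Ms4a1*, *Cd22*, *Pax5* and *Blk* as reference, and 16 to 21 otherwise; *Bank1* and *Spib* lost their call under some alternatives, while the other 14 that fell less, and *Ly6d*, kept it under each with this pair. With *Ms4a1*, *Pax5* and *Blk* as reference, chosen after seeing the data, it was 16 of 23. The median share of WT kept, 10.9%, was 12.3% after quantile normalization, 9.08% without both replicate 1 libraries and 10.3% to 12% without any 1 library. Of 434 values of single members under alternatives 3 changed sign, all of members that did not pass: *Cd37* (-0.032, quantile normalization) and *Blnk* (-0.080 to 0.072 without any 1 library, above 0 without KO replicate 1, and 0.079 without both replicate 1 libraries); the cause was not tested. Low depth limits *Vpreb3*, *Cr2*, *Fcer2a*, *Ebf1* and *H2-Oa*, with 15 or fewer KO reads each.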

Other observations

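Genes of B cell subsets outside the module were also read. Of 6 B-1 cell genes, 3 of them members, 5 fell. *Zbtb32*, a B-1 cell repressor, went from 4.84 ± 0.729 to 0.433 ± 0.124 FPKM (WT and KO mean, SD, n = 3 each), 8.95% of WT, and *Spn*, encoding CD43 and named after its values were seen, to 33.9%, while *Bhlhe41*, a B-1a factor, had means of 9.15 (WT) and 9.37 (KO) FPKM and did not pass (limma adjusted p = 0.857). *Cd55*, from a list of follicular and marginal zone genes, stood at 103% of WT and did not pass.

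Plasma cell markers other than immunoglobulins were mixed. *Mzb1*, a chaperone of antibody-secreting, marginal zone and B-1 cells, fell to 3.41% of WT, from 23.6, 22.5 and 25.2 FPKM to 0.777, 0.770 and 0.885 FPKM. *Sdc1* rose to 145% of WT, *Xbp1* (86.9%) and *Prdm1* (98.6%) did not pass, and *Tnfrsf17*, named after its values were seen, had no reads in any library.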
